A study of Mus musculus with 16 samples.

Results

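The 16 arrays of this series carry the numbers 1 to 4 within each group, and they were split by that number into 8 arrays numbered 1 or 2 and 8 arrays numbered 3 or 4. The sets were chosen by measured values, since the intensities of all genes on these arrays had been seen to differ between them. Every difference between the sets is therefore given as a description, with its standard error (SE) and without a test. The labels do not say what the number stands for. The cells were type 1 conventional dendritic cells (cDC1) sorted from digested inguinal lymph nodes of C57BL/6 mice on day 6 after injection of regressor tumours, a type that is later rejected, into the flank. Each set held 2 arrays of each of 4 groups, which were KO cells without intact Wdfy4 from the tumour-draining node, Het cells with 1 intact copy from the draining node, KO cells from the non-draining node and Het cells from the non-draining node. All groups came from tumour-bearing mice, and no wild-type or tumour-free group was part of the analysis. No label ties an array to its own mouse, so p-values measure only the spread between these samples, and that spread may be technical.

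cDC1 cross-present antigens of dead cells to CD8 T cells, and they depend on the transcription factors BATF3 and IRF8. On maturation, dendritic cells raise CCR7, chemokines and costimulatory ligands and move to the T cell zone of the node, where they are in close contact with T cells. The mitochondrial respiratory chain consists of complexes I to IV, which pass electrons from nutrients to oxygen, and of the ATP synthase. Most of its subunits are encoded by nuclear genes that many cell types express at high levels.

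The targeted gene was read first. Wdfy4 had a lowest, median and highest intensity of 1786, 2219 and 3165 in the 8 KO arrays, against 2278, 2958 and 3450 in the 8 Het arrays. Whether the probe set lies in the deleted part is not given in the sources used here, so it does not check the labels. Wdfy4 was also higher in arrays 1-2, with 2181, 3158 and 3450, than in arrays 3-4, with 1786, 2267 and 2766, a difference of 0.40 ± 0.08 on the log2 scale. Median intensity lay between 38.6 and 40.8 in all 16 arrays, but the upper quartile ran from 120.9 in KO draining array 2 to 137.0 in Het draining array 3. The sign of the difference between sets also went with brightness. Of the 3988 dimmest genes 11.8% had a difference of arrays 1-2 minus 3-4 below 0, against 60.6% of the 3988 brightest. All 24 measured cDC1 markers had their summed intensity between 29552 and 37757 in arrays 1-2 and between 25293 and 32200 in arrays 3-4, so the markers of the labelled cell type were present in both sets. Array 2 of the KO draining group stood apart from the other arrays, and counts without it are given below.

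The split was chosen from these values and the labels were not, so its larger share of the spread is a description and not a test. Of the sum of squares over 19938 genes, the array set accounted for 22.7%, genotype for 5.98%, node for 5.48%, and what was left within set and group for 5.59% per degree of freedom. The first principal component of the group-centred values held 35.3% of their variance. All 8 arrays of 3-4 scored below 0 on it, between -20.5 and -4.66, and 7 of the 8 arrays of 1-2 scored above 0. The exception was KO draining array 1 at -1.87, whereas KO draining array 2 had the farthest score of all, at 38.2.

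**Figure D1:**
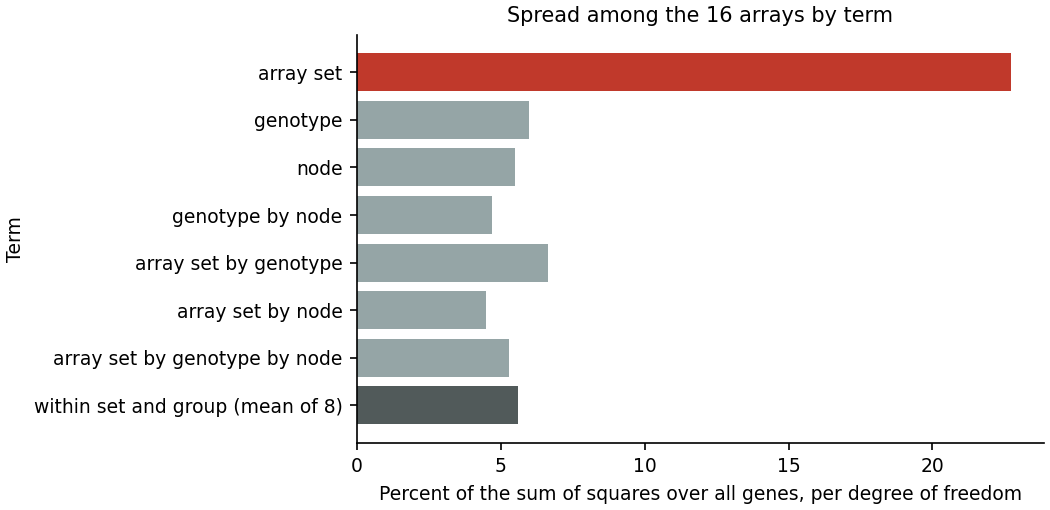
Horizontal bars give the percent of the sum of squares over all genes per degree of freedom, for the array set, the labelled factors, their combinations, and the spread left within set and group. The bar of the array set reaches 22.7%, and those of genotype, node and the remaining spread lie at 5.98%, 5.48% and 5.59%.

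**Figure D2:**
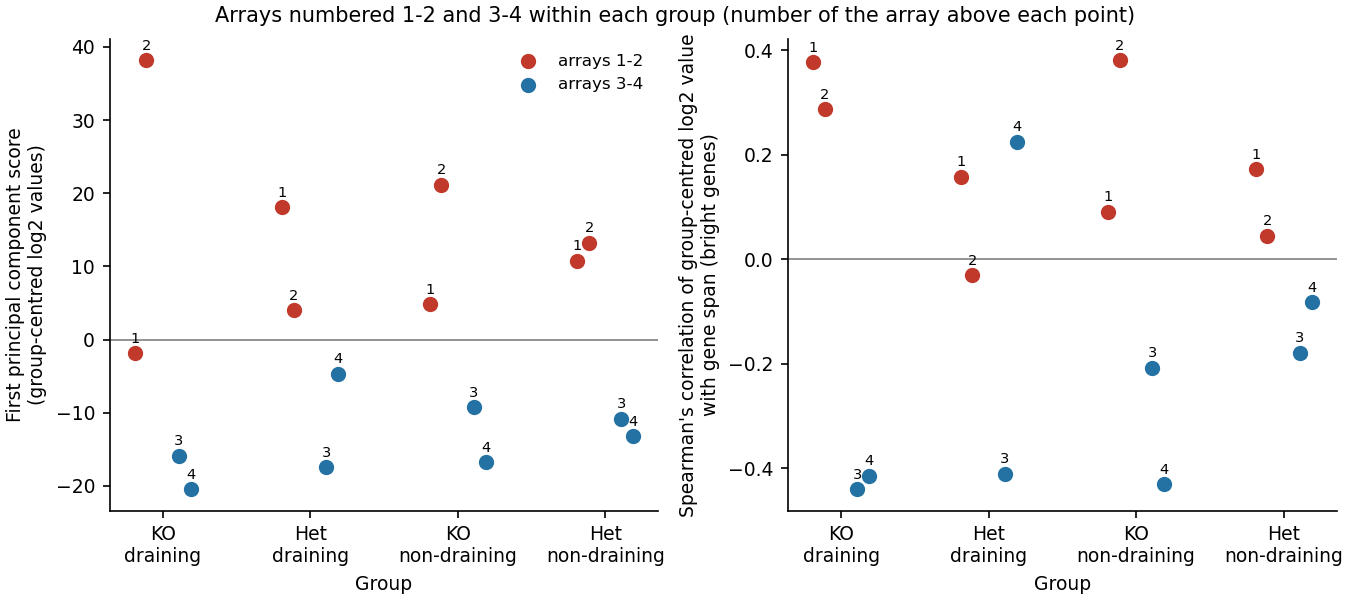
Each point is 1 array, red for arrays 1-2 and blue for arrays 3-4, by group on the horizontal axis. The left panel gives the score on the first principal component, which is lower in every array of 3-4 than in every array of 1-2, and the right panel Spearman's correlation across bright genes between the array's group-centred log2 value and gene span.

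A gene was counted as different where the difference of the set means had the same sign in all 4 groups and the fitted difference was at least 0.5 on the log2 scale. By this rule 97 genes (0.487% of 19938) were higher and 466 (2.34%) were lower in arrays 1-2 than in arrays 3-4, 563 (2.82%) in all. The rule used the same contrast that led to the split, so nothing is read from these shares. Without KO draining array 2 the count was 324, with 74 genes higher and 250 lower. With quantile normalization 176 genes were higher and 275 lower, a 61.0% share of lower genes against 82.8% in the deposited values. The difference ranged from -1.39 to 0.99 over all genes with a median of 0.03, and the median SE was 0.08. Blnk at -0.5001 and Tprkb at -0.5004 lay just inside the limit, and Sigirr and Cd40, both at -0.4995, just outside. Both arrays numbered 1 or 2 lay above both arrays numbered 3 or 4 in every group for 381 genes (1.91%), and below them for 474 genes (2.38%).

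The genes with the largest positive differences included receptors and signalling genes of dendritic cells. Tlr3, the endosomal receptor for double-stranded RNA that marks cDC1, had a lowest, median and highest intensity of 1014, 1470 and 1907 in arrays 1-2, against 666, 739 and 1087 in arrays 3-4. The difference was 0.81 ± 0.13, and the ranges of the sets overlapped slightly, with every group higher in arrays 1-2. Havcr2, which encodes the inhibitory receptor TIM-3 of cDC1, had 536, 584 and 839 in arrays 1-2, against 298, 344 and 478 in arrays 3-4. The ranges did not overlap, and the group differences lay close together, at 0.74, 0.80, 0.82 and 0.97. Nlrp3, an inflammasome sensor, had 125, 177 and 245 in arrays 1-2 and 61.6, 97.8 and 133 in arrays 3-4. Its difference of 0.78 ± 0.15 rested on 3 groups, since that of the KO draining group was 0.03.

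Uck2, which encodes a uridine-cytidine kinase, had 763, 1279 and 1762 in arrays 1-2, against 524, 683 and 919 in arrays 3-4, a difference of 0.78 ± 0.15. Rbbp6, which encodes a ubiquitin ligase that binds the retinoblastoma protein, differed by 0.81 ± 0.13 with arrays 1-2 higher in every group. Prkar2a, a regulatory subunit of protein kinase A, had 113, 160 and 192 in arrays 1-2 and 77.1, 95.5 and 108 in arrays 3-4, without overlap. Slc25a24, a mitochondrial carrier of adenine nucleotides, differed by 0.79 ± 0.12 and Arhgap32 by 0.74 ± 0.15. Tns1, which encodes the actin-linking protein tensin 1, had the largest difference by the rule for named genes, 0.92 ± 0.16, but its probe sets disagreed, and their mean differed by 0.33. Dusp18, Olfr1382 and Prn differed by 0.87, 0.79 and 0.75.

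The genes with the most negative differences held several of cytotoxic and T lymphocytes. Nkg7, a protein of cytotoxic granules, had 39.9, 61.5 and 132 in arrays 1-2, against 118, 158 and 201 in arrays 3-4, a difference of -1.25 ± 0.20. Cxcr6, the receptor for the chemokine CXCL16 on T and NK cells, had 26.2, 50.5 and 110 in arrays 1-2 and 80.3, 121 and 177 in arrays 3-4, a difference of -1.24 ± 0.21. For both genes the ranges overlapped over all groups, and in each group both arrays 1-2 lay below both arrays 3-4. Pgap2, which acts in the maturation of GPI anchors, had 321, 501 and 736 in arrays 1-2, against 879, 984 and 1216 in arrays 3-4, without overlap and at a 0.501-fold level in the fit. Tlr1, the partner of TLR2 in sensing lipopeptides, had 29.0, 51.4 and 70.8 in arrays 1-2 and 71.7, 93.8 and 109 in arrays 3-4, again without overlap.

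Calm4 and Calm5, neighbouring genes of calmodulin-like proteins whose similar sequences the probe sets may share, differed by -1.16 ± 0.12 and -0.95 ± 0.15, with no overlap of the sets for either. H2bc4, a replication-dependent H2B histone whose probes may also read related copies, had 619, 1040 and 1426 in arrays 1-2, against 1788, 1942 and 2358 in arrays 3-4. Its difference of -0.98 ± 0.14 was alike across groups, between -1.15 and -0.87. Mmp7, a matrix protease, differed by -0.96 ± 0.18 and Insl6, an insulin-like gene, by -0.99 ± 0.16. Trim13, a ubiquitin ligase of the endoplasmic reticulum, differed by -1.03 ± 0.20 and Ifi27l2a, an interferon-induced gene, by -0.98 ± 0.24, and for these the sets overlapped in 2 of the 4 groups.

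**Figure D3:**
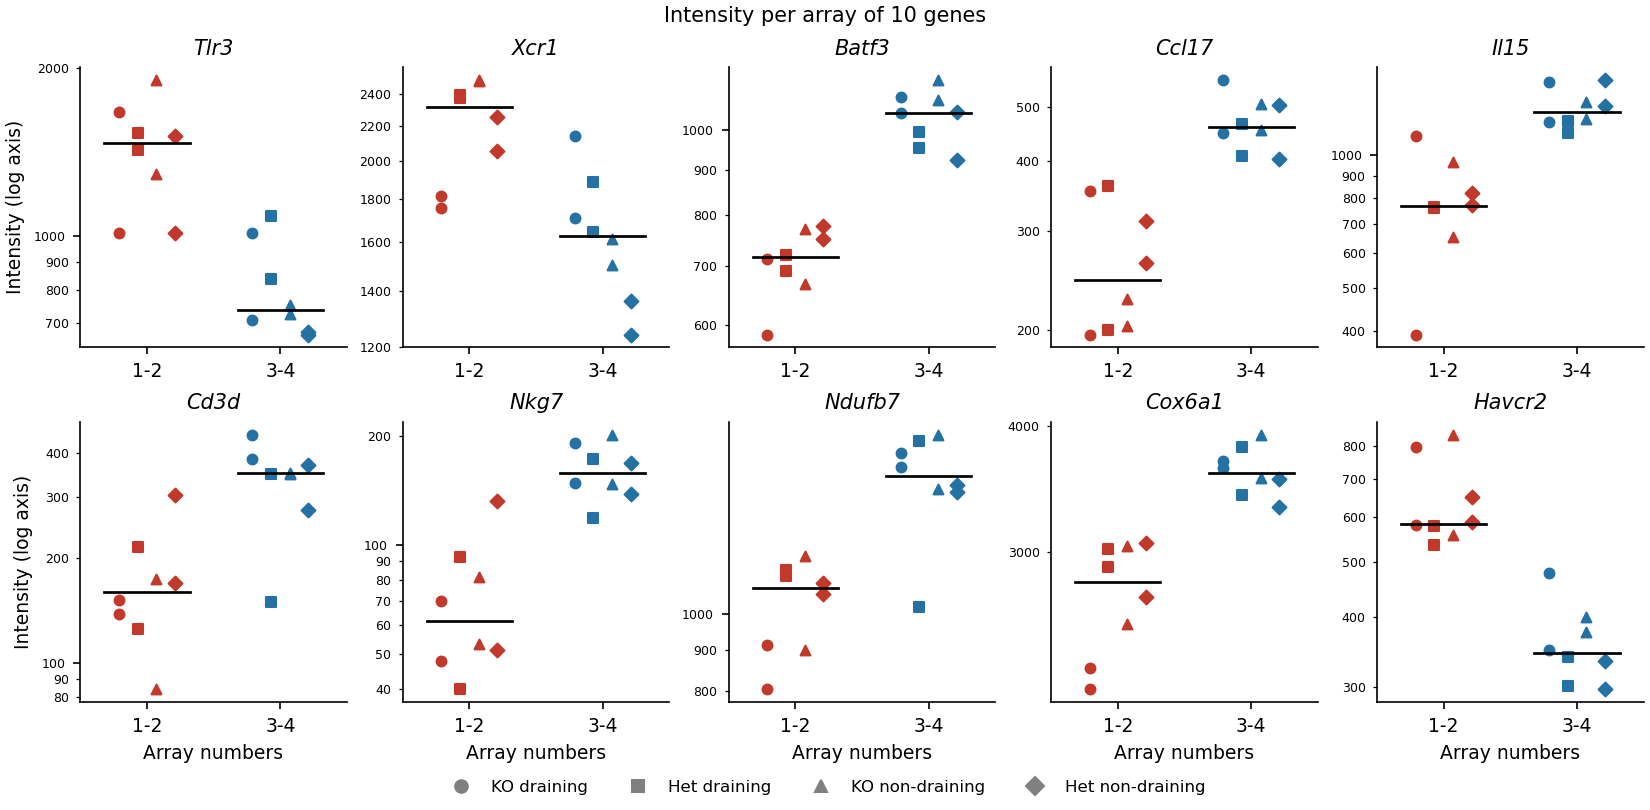
Intensity on a log axis of 10 genes in each of the 16 arrays, with arrays 1-2 in red on the left of each panel, arrays 3-4 in blue on the right, the group given by the symbol, and a bar at the median of 8 arrays. Havcr2, Batf3 and Cox6a1 part the sets without overlap, and Cd3d and Nkg7 overlap between the sets.

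Genes of cDC1 identity mostly had higher values in arrays 1-2, with Batf3 on the other side. Of 24 measured markers, 19 had a difference above 0, 5 below 0, 2 were called higher and 1 lower, and the median was 0.26. Over all genes the median was 0.03, 57.8% lay above 0, 0.487% were called higher and 2.34% lower. The median was 0.12 in KO draining, 0.14 in Het draining, 0.36 in KO non-draining and 0.42 in Het non-draining cells. Besides Tlr3, the called gene was Septin3, a septin gene, with 382, 442 and 600 in arrays 1-2, against 251, 316 and 466 in arrays 3-4, a difference of 0.52 ± 0.10. Xcr1, the receptor for the chemokine XCL1 and the defining surface marker of cDC1, had 1755, 2315 and 2495 in arrays 1-2, against 1240, 1628 and 2138 in arrays 3-4. Its difference was 0.44 ± 0.10 over all groups, -0.10 in KO draining cells, 0.44 in Het draining, 0.68 in KO non-draining and 0.73 in Het non-draining cells. Cadm1, an adhesion molecule of cDC1, differed by 0.44 ± 0.08, and Ppt1, a lysosomal thioesterase, had 4138, 4419 and 5042 in arrays 1-2 and 2993, 3486 and 3717 in arrays 3-4. Clec9a, the receptor for exposed actin of dead cells, and Irf8 differed little, by 0.13 ± 0.09 and 0.14 ± 0.08.

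Batf3, the factor that maintains the cDC1 lineage, had 585, 717 and 777 in arrays 1-2, against 925, 1045 and 1138 in arrays 3-4. The sets did not overlap, all 4 groups were parted, and the difference was -0.54 ± 0.07. Zbtb46, a factor of conventional dendritic cells, stood at 122, 142 and 166 in arrays 1-2 and at 160, 170 and 177 in arrays 3-4, a difference of -0.27 ± 0.08 with the same sign in every group. Id2 and Flt3 differed by -0.19 and -0.11.

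MHC class II genes, which present antigen to CD4 T cells, had 7 of 9 differences above 0 and a median of 0.14, and none was called. Ciita, the master activator of these genes, had 361, 419 and 562 in arrays 1-2, against 245, 332 and 397 in arrays 3-4, a difference of 0.43 ± 0.10. Cd74, the invariant chain, and H2-Ab1 and H2-Aa, the chains of I-A, differed by 0.23, 0.16 and 0.14, each with the same sign in all groups. Ctss, the protease that cuts the invariant chain, went the other way, with 1698, 2366 and 2575 in arrays 1-2 and 2317, 3033 and 3451 in arrays 3-4.

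Maturation genes mostly had lower values in arrays 1-2. Of 30 measured genes, 25 had a difference below 0, against 42.2% of all genes and 60.6% of the 3988 brightest genes. Called lower were 3, against 2.34% and 6.57%, and 1 was called higher, against 0.487% and 1.35%. The median over the list was -0.27. It was -0.18 in KO draining, -0.38 in Het draining, -0.27 in KO non-draining and -0.29 in Het non-draining cells. The chemokine Ccl17, a ligand of CCR4, had 197, 246 and 361 in arrays 1-2, against 404, 460 and 558 in arrays 3-4, without overlap and with a difference of -0.85 ± 0.14. Ccl22, the other ligand of CCR4, had 791, 1040 and 1898 in arrays 1-2 and 1367, 1551 and 1764 in arrays 3-4, so the ranges overlapped. Il15, the cytokine that dendritic cells present to CD8 T and NK cells, had 393, 768 and 1110 in arrays 1-2, against 1123, 1255 and 1483 in arrays 3-4, a difference of -0.77 ± 0.16. Il15ra, which presents it, differed by -0.47 ± 0.12.

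Costimulatory genes differed in direction. Cd40, the receptor for the helper signal of T cells, had 646, 955 and 1251 in arrays 1-2, against 1144, 1338 and 1419 in arrays 3-4, a difference of -0.50 ± 0.10 that missed the limit. Cd80 and Cd86, the ligands of CD28, were instead higher in arrays 1-2. Cd80 had 464, 644 and 848 in arrays 1-2 and 334, 446 and 550 in arrays 3-4, a difference of 0.51 ± 0.11, and Cd86 differed by 0.28 ± 0.07, with the same sign in every group for both. Cd70, the ligand of CD27, differed by -0.43 ± 0.15 and Cd83, a marker of mature dendritic cells, by -0.18 ± 0.08. Ccr7, the receptor that guides cells to the node, differed by -0.24 ± 0.09, Fscn1, an actin bundler of mature cells, by -0.33 ± 0.13, and Relb, an NF-kappaB subunit of maturation, by -0.34 ± 0.12. Anxa3, an annexin on the list, was the third gene called lower, at -0.59 ± 0.12. KO draining array 1 was at odds with its set, since its mean over the list lay 0.27 above its group mean, whereas KO draining array 2 lay 0.47 below it. The list's median was -0.34 without KO draining array 1, -0.20 without KO draining array 2 and -0.30 without the KO draining group.

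T cell transcripts mostly had lower values in arrays 1-2. In RNA of sorted cells, fewer T cells and less T cell RNA per cell cannot be told apart. Of 22 measured T cell genes, 21 had a difference below 0, against 42.2% of all genes, 10 were called lower, against 2.34%, and the median was -0.43. The sign was the same in all groups for 17 of the 22 genes. The summed intensity had a lowest, median and highest value of 1975, 2788 and 4649 in arrays 1-2, against 3048, 4241 and 4981 in arrays 3-4. The median was -0.36 in KO draining, -0.29 in Het draining, -0.81 in KO non-draining and -0.23 in Het non-draining cells. Single arrays broke the order. Het non-draining array 1 had a mean over the list of 7.27 on the log2 scale, above both arrays 3 and 4 of its group, the higher of which had 7.21, and Het draining array 2, at 6.69, lay above Het draining array 4 at 6.65. Of the 22 genes 10 had a mean log2 intensity of at least 7, and the others were dimmer. How far the dimmer ones stood above background was not tested.

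Chains of the CD3 complex of the T cell receptor led the list. Cd3d had 84.3, 161 and 304 in arrays 1-2, against 150, 351 and 453 in arrays 3-4, a 0.499-fold level in the fit. Cd3g had 155, 338 and 727 in arrays 1-2 and 295, 683 and 889 in arrays 3-4, a difference of -0.92 ± 0.23. The differences of Cd3d were -1.52 in both KO groups and -0.48 and -0.49 in the Het groups. Lat, Zap70 and Cd3e, which pass on the receptor's signal, differed by -0.74, -0.69 and -0.56, and Cd8b1, the beta chain of the CD8 coreceptor, by -0.61 ± 0.13. Cd8a, which mouse cDC1 express themselves, differed by 0.09 ± 0.11, and Cd4 by -0.12 ± 0.10. Il7r, the receptor for interleukin 7, had 242, 336 and 438 in arrays 1-2 and 361, 473 and 586 in arrays 3-4. Thy1, Cd2 and Cd28 were also called lower.

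Lists of other cells in the node had between 0 and 3 genes called lower each, against 2.34% of all genes. Of 12 NK and cytotoxic genes 8 had a difference below 0 and 2 were called lower, Nkg7 and Il2rb, a chain of the receptors for interleukins 2 and 15. Il2rb stood at -0.53 ± 0.17, at -0.45 without KO non-draining array 4, and at 0.041 with the T cell list's mean as a covariate. Ncr1, Klrb1c and Gzma, which define NK cells, had medians between 10.3 and 23.6 in arrays 1-2 and between 10.8 and 23.0 in arrays 3-4. Summed B cell markers lay between 754 and 1242 in arrays 1-2 and between 719 and 1355 in arrays 3-4, with 12 of 13 genes below 0 and 0 called. Of 13 macrophage genes 9 had a difference below 0, and the median was -0.09, with -0.44 in KO draining cells. The complement genes C1qa, C1qb and C1qc were called lower, at -0.67, -0.65 and -0.54. C1qb had 34.6, 37.6 and 51.2 in arrays 1-2, against 53.9, 60.6 and 77.9 in arrays 3-4, without overlap. The chemokine receptor gene Cx3cr1 stood at -0.28 ± 0.13 and Lyz2, a lysozyme, at -0.20 ± 0.13, whereas Csf1r, Mertk and Adgre1 stood at 0.03, 0.09 and -0.09.

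Of 10 genes of cDC2, 8 had a difference below 0 and 2 were called lower, against 2.34% of all genes, and the median was -0.23, or -0.38 without the KO draining group. Esam stood at -0.51 ± 0.17 and at -0.37 without KO draining array 2, and Cd7 at -0.54 ± 0.17 and at -0.43 without KO non-draining array 2. Mgl2, a lectin of cDC2, had the lowest difference of the list, -0.61 ± 0.29, but 0.19 in KO draining cells. Ccl19 and Cxcl13, chemokines of stromal cells in the node, were called lower, and Ccl19, which mature dendritic cells also make, had 171, 283 and 370 in arrays 1-2 and 411, 502 and 565 in arrays 3-4. The collagen genes Col1a1 and Col3a1 and the endothelial gene Pecam1 on that list stood at 0.07, 0.06 and -0.06. Bst2, a plasmacytoid marker that interferon also induces, had 456, 649 and 808 in arrays 1-2, against 821, 1105 and 1297 in arrays 3-4. Ccr9, a chemokine receptor on the same list, was called higher at 0.58 ± 0.14. The part of other cells in the remaining differences was not tested.

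Genes of the respiratory chain were lower in arrays 1-2 across nearly all subunits. Of 74 measured genes of complexes I to IV and the ATP synthase, 72 had a difference below 0, 6 (8.11%) were called lower, and the median was -0.34. Cytochrome c was counted with complex IV. Over all genes 2.34% were called lower and 42.2% lay below 0, and among the 3988 brightest genes 6.57% and 60.6%, so the share called was near that of genes of like brightness. The sign was the same in all groups for 50 of the 74 genes. The median was -0.67 in KO draining, -0.09 in Het draining, -0.39 in KO non-draining and -0.21 in Het non-draining cells. Genes encoded by the mitochondrial genome were not analysed here. Before the values, the 250 bases upstream of the start site are shown for 3 genes with the palindrome that nuclear respiratory factor 1 (NRF1) binds, because the motif is known from promoters of the chain. Bases run 5′ to 3′ on the gene's strand, and capitals mark each match to the palindrome. The sequences are from RefSeq, build GRCm38.p6.
Ndufs5, complex I, minus strand of chr4:123718187-123718436: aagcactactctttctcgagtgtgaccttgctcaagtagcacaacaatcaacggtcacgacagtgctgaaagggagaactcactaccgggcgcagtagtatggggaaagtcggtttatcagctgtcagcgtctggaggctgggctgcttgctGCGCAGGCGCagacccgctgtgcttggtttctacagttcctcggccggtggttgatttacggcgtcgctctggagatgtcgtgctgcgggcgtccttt
Cox6a1, complex IV, minus strand of chr5:115348959-115349208: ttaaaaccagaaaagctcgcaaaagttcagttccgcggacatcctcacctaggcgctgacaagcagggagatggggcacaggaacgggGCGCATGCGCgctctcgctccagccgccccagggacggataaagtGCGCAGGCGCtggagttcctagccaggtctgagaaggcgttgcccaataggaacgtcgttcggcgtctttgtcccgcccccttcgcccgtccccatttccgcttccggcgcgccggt
Sdha, complex II, minus strand of chr13:74350241-74350490: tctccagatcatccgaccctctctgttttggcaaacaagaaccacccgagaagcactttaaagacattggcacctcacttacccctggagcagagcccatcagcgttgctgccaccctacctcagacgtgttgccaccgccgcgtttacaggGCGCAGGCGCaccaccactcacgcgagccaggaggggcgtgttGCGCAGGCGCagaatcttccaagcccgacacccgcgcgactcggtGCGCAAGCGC

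Promoters were taken as 250 bases before to 50 after the start site. On either strand, matches of this motif were found in the promoters of 16 of 63 genes of the chain with a promoter sequence (25.4%), against 1225 of 15614 measured genes (7.85%). Among genes called lower in arrays 1-2 it was found in 36 of 360, and among those called higher in 3 of 73. The genes printed hold 1 match in Ndufs5, 2 in Cox6a1 and 3 in Sdha, and they differed by -0.69, -0.42 and -0.23 in that order. Whether the number of matches goes with the difference was not tested. The core of the interferon-stimulated response element, searched on both strands, was found in 0 of 20 maturation genes with a promoter sequence and in 607 of 15614 measured genes (3.89%). A match describes the letters only.

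Complex I, which takes electrons from NADH, had all 35 measured subunits below 0, 5 of them called lower, and a median of -0.38. Ndufs5, a small accessory subunit, had 135, 322 and 509 in arrays 1-2, against 310, 495 and 682 in arrays 3-4, a difference of -0.69 ± 0.19. Ndufb7, another accessory subunit, had 805, 1077 and 1180 in arrays 1-2 and 1020, 1488 and 1675 in arrays 3-4, a difference of -0.52 ± 0.11, and a single array of 3-4, Het draining 4, lay within the range of arrays 1-2. Ndufs1, the largest core subunit, had a highest value of 88.3 and a median of 72.5 in arrays 1-2, below every value of arrays 3-4, whose median was 103. Ndufa7 and Ndufs7 completed the called genes at -0.57 ± 0.10 and -0.50 ± 0.10.

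Complex II, which takes electrons from succinate, had 3 of 4 subunits below 0, with Sdhb at -0.45 ± 0.11 and Sdhc at 0.03 ± 0.09. Complex III had 9 of 9 subunits below 0, and Uqcr11, a small subunit, was called lower with 127, 239 and 285 in arrays 1-2, against 211, 348 and 398 in arrays 3-4. Cyc1, which holds the haem that passes electrons to cytochrome c, differed by -0.46 ± 0.11. The list of complex IV, cytochrome c oxidase, also held cytochrome c, and it had 10 of 11 genes below 0 and none called. Cox6a1 had 2196, 2806 and 3062 in arrays 1-2 and 3329, 3597 and 3924 in arrays 3-4, parted in all 4 groups at a difference of -0.42 ± 0.07, and Cox5a differed by -0.48 ± 0.10. Cycs, cytochrome c itself and not a subunit of the oxidase, was the gene above 0, at 0.04 ± 0.08. All 15 genes of the ATP synthase lay below 0, between -0.48 for Atp5d, the delta subunit, and -0.06 for Atp5b, the catalytic beta subunit.

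The arrays of a set differed in the respiratory chain as well. The mean over the chain lay 0.44 below its group mean in KO draining array 2, 0.34 below it in KO non-draining array 2 and 0.22 below it in KO draining array 1, whereas KO non-draining array 1 lay at -0.03 and Het draining array 2 at 0.02. Het draining array 4 was at -0.15, on the side of arrays 1-2. Without KO draining array 2 the median over the chain was -0.28, and without the KO draining group -0.23. T cell RNA moved with the same split, and with the T cell list's mean as a covariate the chain's median was -0.25.

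Neighbouring functions differed in degree. The counts of this paragraph and the next stand beside 2.34% called lower and 42.2% below 0 over all genes. Among the 3988 brightest genes these shares were 6.57% and 60.6%. Mitochondrial ribosomal proteins, which translate the mitochondrial genome, had 74 of 77 genes below 0, 9 called lower and a median of -0.27. Mrpl14 of the large subunit had 434, 672 and 761 in arrays 1-2, against 857, 1096 and 1251 in arrays 3-4, without overlap. Cytosolic ribosomal proteins had 48 of 53 genes below 0, with a median of -0.14 and none called. Proteasome genes were all below 0, 31 of 31, with 3 called lower, among them Psmd4, a ubiquitin receptor of the proteasome, with 225, 431 and 540 in arrays 1-2 and 522, 589 and 722 in arrays 3-4.

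The tricarboxylic acid cycle had 12 of 14 genes below 0, with Cs, citrate synthase, at 0.33 ± 0.10 on the other side. Glycolysis, which makes ATP in the cytosol, had 8 of 13 genes below 0 and a median of -0.04, with Tpi1, triosephosphate isomerase, called lower at -0.58 ± 0.10 and Ldha, lactate dehydrogenase, at 0.25 ± 0.13. Type I interferon genes had a median of -0.01 and immediate early genes, which tissue digestion can raise, had a median of -0.03.

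**Figure D4:**
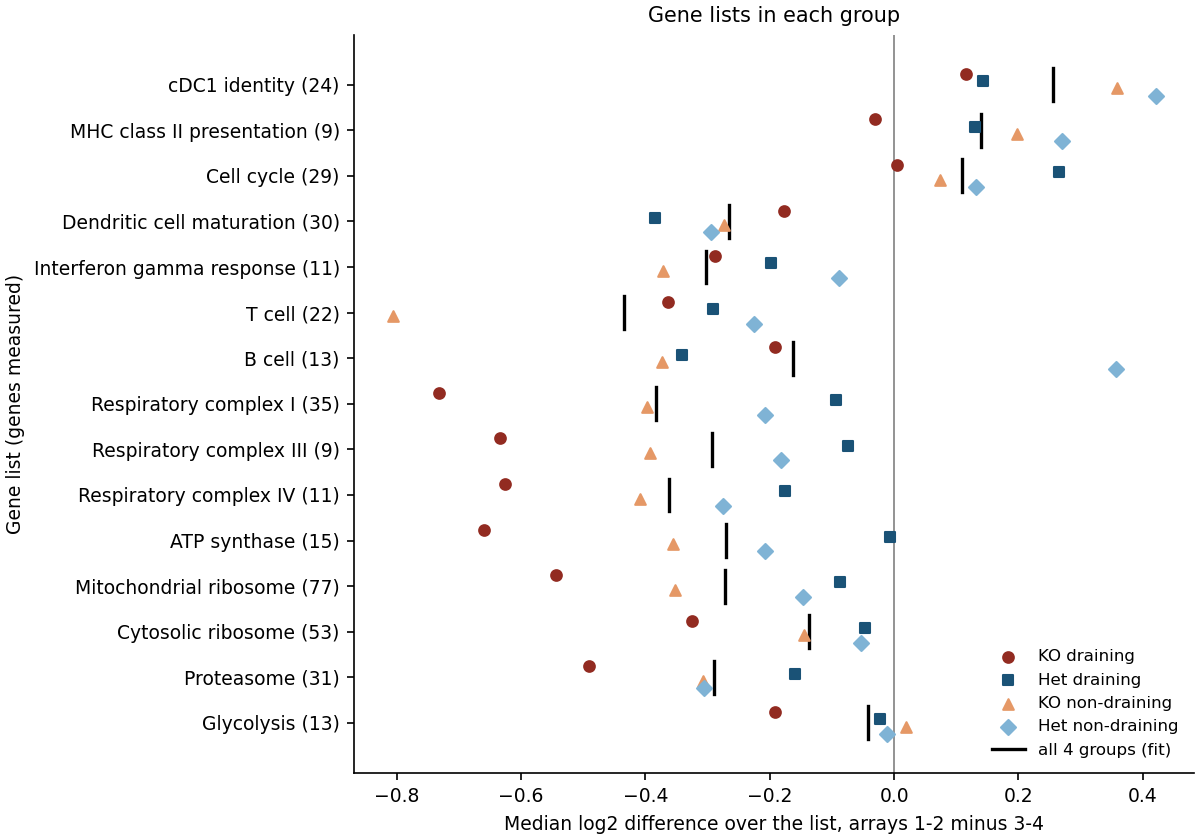
Each point is the median log2 difference of arrays 1-2 minus 3-4 over a gene list within 1 group, and each vertical bar the median of the fit over the 4 groups, with the number of genes measured in brackets. The lists of the respiratory chain lie below 0 in every group with the KO draining group lowest, the cDC1 list lies above 0 in every group, and the B cell list changes side in the Het non-draining group.

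Called genes also differed in the length of the gene in the genome, its span in the RefSeq annotation of GRCm38.p6. The median span was 59.7 kb over 87 protein-coding genes called higher, 9.53 kb over 447 called lower and 19.2 kb over all 18555. Among 5361 bright genes, with a mean log2 intensity of at least 7, the median difference was -0.28 in the shortest of 10 bins by span, in which 17.7% were called lower, and 0.05 in the longest. Across these genes Spearman's correlation between the difference and span was 0.37, and it was 0.06 over all genes. Genes share probes' base composition and array, and they are not independent replicates.

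The relation to span ran differently in single arrays. Spearman's correlation between an array's group-centred values and span was, over bright genes, 0.38, 0.29, -0.44 and -0.41 for KO draining arrays 1 to 4, and 0.16, -0.03, -0.41 and 0.23 for Het draining arrays 1 to 4. It was 0.09, 0.38, -0.21 and -0.43 for KO non-draining and 0.17, 0.04, -0.18 and -0.08 for Het non-draining arrays. Het draining array 4 had the sign of most arrays of 1-2. Over all genes the correlation was weak, between -0.13 and 0.19, and several arrays had the other sign. The shortest bin had a median difference of -0.49 in KO draining, -0.12 in Het draining, -0.29 in KO non-draining and -0.16 in Het non-draining cells.

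Relative to the median of their own span bin, respiratory chain genes lay at -0.13, with 62 of 73 below it, maturation genes at -0.10 and proteasome genes at -0.16. Cytosolic ribosomal genes lay at 0.11 and cDC1 genes at 0.29. Of 22 T cell genes 10 were bright, and these lay at -0.41, with 10 of 10 below the median of their own bin.

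**Figure D5:**
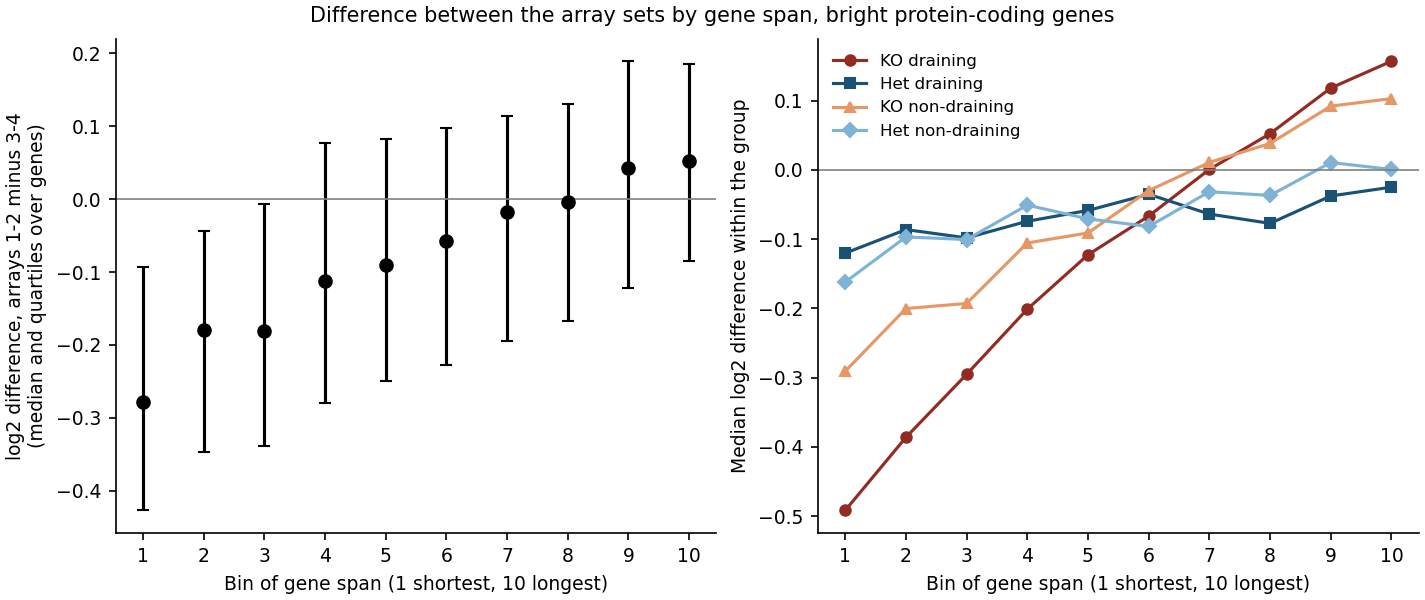
Log2 difference of arrays 1-2 minus 3-4 by bin of gene span among bright protein-coding genes, as median and quartiles over genes on the left and as the median within each group on the right. The median climbs between -0.28 in the shortest and 0.05 in the longest of 10 bins, and the line of the KO draining group is the steepest.

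Whether the split differed between the labelled groups was not used to choose it, and this was tested over all 19938 genes with limma, two-sided and adjusted by the Benjamini-Hochberg method. For KO minus Het of the difference between sets, 0 genes (0%) passed an adjusted p of 0.05 in limma, with 1360 at an unadjusted p under 0.05. Mcpt2, a mast cell protease with intensities near the floor, had the smallest adjusted p, 0.296, with a difference of -1.05 ± 0.16. Mrpl42, a mitochondrial ribosomal gene, had set differences of -0.66 and -0.24 in the KO draining and KO non-draining groups, against 0.44 and 0.35 in the Het groups, at an adjusted p of 0.411 in limma. The respiratory chain had a median of -0.37 for KO minus Het of the set difference, with 73 of 74 genes below 0 and 36 at an unadjusted p under 0.05. None of them passed the adjusted threshold in limma. The lean was not particular to the chain. Its median was -0.35 for mitochondrial ribosomal genes (73 of 77 below 0), -0.17 for cytosolic ribosomal genes (52 of 53) and -0.27 for T cell genes (21 of 22). Over all genes the median was -0.02, and for maturation genes it was 0.03, with 17 of 30 above 0. The chain's median was -0.27 without Het draining array 4 and -0.31 without KO draining array 2.

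For draining minus non-draining of the set difference, 0 genes (0%) passed in limma, 668 had an unadjusted p under 0.05 and the smallest adjusted p was 1.00. In simulated data, differences of 1 on the log2 scale were found in 81% of genes for genotype and 72% for node, and differences of 0.5 in 10% and 12%, so dependences of that smaller size would seldom have been found with these arrays.

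With the array set as a term, KO against Het cells over both nodes gave 0 genes (0%) past the threshold in limma, 1028 at an unadjusted p under 0.05, and a smallest adjusted p of 0.0596. That p was shared by Hsph1, a heat shock chaperone, at 0.78 ± 0.12, Psmd1, a proteasome subunit, at -0.43 ± 0.07, and Arg2, the mitochondrial arginase, at -0.52 ± 0.08. Without the term the smallest adjusted p was 0.103, and 696 genes had an unadjusted p under 0.05. The median residual SD of a gene was 0.16 with the term and 0.18 without it. Because the term was chosen from these values, the changes it made are a description and no support for it. Draining against non-draining cells with the term gave 0 genes (0%) in limma, 907 at an unadjusted p under 0.05 and a smallest adjusted p of 0.965.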

How the data were processed

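RNA of sorted cDC1 was measured on 16 Affymetrix Mouse Gene 1.0 ST arrays. The authors' table gives linear intensity for 35556 probe sets, between 3.327 and 16300.089 as deposited. Per the submitters' processing notes RMA was applied, with software and version not given in the sources used here. This method pulls dim probe sets toward a floor and removes shifts shared by all genes. Of the probe sets, 21789 carried 1 symbol, 1621 several and 12146 none. A gene was read from its brightest probe set, which gave 19938 genes. Some list members were not analysed here.

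Values were fitted as log2(intensity + 1) with limma 3.58.1 in R 4.3.3, with the 4 groups and the array set as terms over 16 arrays (11 residual degrees of freedom). Dependence of the set difference on genotype or node was tested in a fit of the 8 combinations of set and group, and 5 comparisons were made in all. Errors after ± are SEs. Adjustment over all genes was by the Benjamini-Hochberg method, and calls were made at 0.05. Folds are understated for dim genes, and the number of arrays limits the precision. The fits were tested on simulated data. Plots used matplotlib 3.10.9 in Python 3.11.15.

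The split, the gene lists and the tests were chosen with earlier results of these data known. The text names the 12 genes of largest and the 12 of smallest set difference with the same sign in all groups (predicted, small RNA and receptor segment genes left out), up to 5 members of largest difference per list, and the 3 genes of smallest p where none passed. Other list members were chosen for their known role after their values were seen, as was the limit for bright genes. Alternatives were the pseudocount, a filter on dim genes, the mean of probe sets, quantile normalization, blocks, the set term, and leaving out arrays. Group-centred values of same-numbered arrays of different groups correlated over 0.1 in 18 of 24 pairs, between -0.06 and 0.48. Their median was 0.22, against 0.23 over all 48 pairs of different groups within a set. No label says that a number stands for a mouse, so the numbers were not taken as pairs. Whether same-numbered arrays share a mouse was not tested.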

Additional observations from a re-analysis of the deposited data

Results flagged for a closer look

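Within each set of 8 arrays, the highest or lowest array was set against the others, and 38 of 478 such sets (7.95%) had an array farther off than Dixon's critical value of 0.526. About 5% of sets would pass if each held 8 independent values of 1 normal distribution. These sets pool arrays of 4 groups, and many share genes, so no excess is read from the 7.95%. The array concerned was Het draining 4 in most sets of arrays 3-4, always on the low side for the respiratory chain. Its intensities were 1020 for Ndufb7, 211 for Uqcr11, 3287 for Uqcrh, 1008 for Uqcrfs1, 2021 for Cox4i1, 361 for Atp5d, 324 for Atp5e, 176 for Mrpl54 and 276 for Rpl22. It also had 150 for Cd3d, 295 for Cd3g, 1677 for Psmb10 and 2317 for Ctss. Its list means on the log2 scale were 8.83 for complex I, 9.53 for complex III, 9.41 for the ATP synthase, 11.38 for cytosolic ribosomal genes and 6.65 for T cell genes. Other arrays numbered 3 or 4 were KO draining 4, low for Pdia3 at 1129, KO draining 3 for Lamp1 at 696, Het non-draining 4 for Kif11 at 46.2, and Het non-draining 3, high for S100a9 at 99.0 and for the neutrophil list at 4.89 on the log2 scale and low for Cxcl13 at 75.4.

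Among arrays numbered 1 or 2, KO draining 2 was low for Psme2 at 2607, Ctss at 1698, Pmvk at 143, Ctsz at 770 and Usp18 at 213, and high for Sdc1 at 119. Het draining 1 was low for Dnajb1 at 213 and high for Kif11 at 147, and for Hnrnpc it stood at 742. KO non-draining 1 stood apart for Siglech at 123 and Cdh1 at 44.9, Het non-draining 1 for Il2rb at 346, and Het non-draining 2 for Ly6d at 89.1 and Cxcr2 at 31.98.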

How the results depend on the processing

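The count of 563 genes different between the sets was 576 without a pseudocount, 391 with a pseudocount of 16, 501 with a mean log2 of at least 6, 534 with the mean of probe sets, and 451 with quantile normalization. With genotype and number together as a random block it was 563, which is no check, because the block cannot change the fitted differences in this balanced design. Quantile normalization gave 176 genes higher and 275 lower, so 61.0% were lower against 82.8% before. With the T cell list's mean as a covariate it was 514, and 520 without the KO draining group, both chosen after seeing the data; these gave 75.5% and 71.3% lower. Leaving out 1 array each gave between 324, without KO draining array 2, and 718, without KO draining array 1. Of 64 list members counted as different, 53 were examined without each array in turn. Of these 53, 24 fell under 0.5 in size without at least 1 array, 20 of them without KO draining array 2. For KO minus Het of the set difference, the count of 0 in limma became 1 without Het draining array 3, KO draining array 1 or KO non-draining array 4, and otherwise stayed at 0. For draining minus non-draining of the set difference it was between 0 and 1, with 1 without KO non-draining array 4. For KO against Het with the set term, the count of 0 became 3 with a mean log2 of at least 6 and 4 with quantile normalization, and lay between 0 and 2 when 1 array was left out. With the replicate number as a block, where samples share only a number, it was 1 (Hsph1, adjusted p 0.0315 in limma), and 0 for the other 3 comparisons. No paired analysis was possible for the set difference itself because the numbers define the sets. The difference of Il2rb became 0.041 with the T cell covariate, against -0.53. List medians lay between 0.20 and 0.34 for cDC1 identity, between -0.34 and -0.16 for maturation and between -0.41 and -0.23 for the respiratory chain over all settings run. The T cell list's median was 0.01 with its own mean as covariate. Of 4860 values of single genes under alternatives, 4841 stayed within 1 residual SD of the main value, 18 moved farther and 1 reversed. The random block could not move these values, and fits without 1 array shared all the other arrays. The share that stayed is therefore no test of the differences. A reversal was scored only for genes counted as different. Small differences of other genes could change sign, as for Sdhc, between -0.01 and 0.09 when 1 array was left out.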

Other observations

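Several functions outside the lists described above also had called genes. The counts of this section stand beside 0.487% called higher and 2.34% called lower over all genes, with 57.8% above and 42.2% below 0. Among the 3988 brightest genes 1.35% were called higher, 6.57% were called lower and 60.6% lay below 0. Of 29 cell cycle genes 23 had a difference above 0 for arrays 1-2 minus 3-4, and 2 were called higher. Mki67, the proliferation marker Ki-67, had 424, 590 and 955 in arrays 1-2, against 278, 374 and 594 in arrays 3-4, a difference of 0.65 ± 0.12. Nusap1, a spindle protein, differed by 0.53 ± 0.14 and Ccna2, cyclin A2, by 0.47 ± 0.12, whereas Cdk1 and Pcna stood at -0.07 and 0.01. Cholesterol synthesis genes had 12 of 15 differences below 0 and 3 called lower, Idi1 at -0.66 ± 0.13, Hmgcs1 at -0.58 ± 0.14 and Fdps at -0.57 ± 0.17. Idi1, the isomerase of the isoprenoid units, had 67.2, 130 and 150 in arrays 1-2 and 163, 181 and 201 in arrays 3-4, without overlap. Of 10 heat shock genes 8 had a difference below 0 and 2 were called lower, with a median of -0.11. Hspb1, a small heat shock protein, had 72.9, 90.7 and 113 in arrays 1-2 and 122, 154 and 188 in arrays 3-4, whereas Hspa8, a constitutive chaperone, stood at 0.20 ± 0.06. Of 11 interferon gamma genes 10 had a difference below 0 and 1 was called lower, with a median of -0.30. The called gene, Irf1, a transcription factor that interferon gamma induces, had 292, 403 and 658 in arrays 1-2, against 467, 625 and 694 in arrays 3-4, and its difference was -0.53 ± 0.13, or -0.45 without KO draining array 2. Cxcl9, a chemokine that the same cytokine induces, was the gene above 0, at 0.37 ± 0.08.

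In MHC class I processing 10 of 14 genes had a difference below 0, with a median of -0.17. All 14 were bright, and among the 3988 brightest genes 60.6% lay below 0. Relative to the median of their own span bin they lay at -0.02, with 7 of 14 below it, so no shift of the list is read from the count. Psme2, a subunit of the proteasome activator, was called lower with 2607, 4239 and 4899 in arrays 1-2 and 4654, 5920 and 6350 in arrays 3-4. Pdia3, a chaperone of the peptide loading complex, had 1702, 1813 and 1933 in arrays 1-2, against 1129, 1354 and 1450 in arrays 3-4, without overlap. Lysosomal genes lay on both sides, 6 above and 8 below 0, with Ctsz and Ctsd, which encode cathepsins, called lower at -0.53 ± 0.09 and -0.54 ± 0.12, and Gusb, beta-glucuronidase, at 0.27 ± 0.07. Of 54 small nucleolar RNA genes 41 had a difference below 0 and 5 were called lower, with Snord42a at 19.9, 24.8 and 30.3 in arrays 1-2 and 33.5, 41.5 and 50.7 in arrays 3-4. Probe sets without a single gene symbol were called by the same rule in 358 cases higher and 410 lower of 13767. That is 5.58%, against 2.82% of the 19938 genes.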
